A study of Homo sapiens with 24 samples.

Results

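OG-seq measured 8-oxoguanine (OG), the main oxidation product of guanine, along the genome of the near-haploid human cell line HAP1. Described here are the 1 kb bins of the genome in which WT cells had more OG signal than every knockout column. Each column of the table was divided by its mean over all bins. An autosomal bin was a member when the lowest of the 3 WT columns exceeded the highest of the 9 knockout columns. There were 11568 members among 2687773 autosomal bins (0.430%), out of 2835235 bins in the whole table. The members were chosen on these values, so the height of WT over the knockouts in them is a description and received no test.

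The genotypes were WT, MUTYH-/ (knockout of MUTYH), OGG1-/ (knockout of OGG1) and MUTYH-/ X OGG1-/ (both knocked out, called DKO), with 3 columns each, named MU1 to MU3, OG1 to OG3 and DKO1 to DKO3 for the knockouts. No treatment was given in the labels, and all cells were HAP1. The knockouts were made with CRISPR-Cas9, and the labels name 2 clones per genotype. The authors list OGG1 clone 2 as the parent of both DKO clones, so the knockout columns do not all come from separate lineages. Which clone stands behind which column was not given in the sources used here, so differences between genotypes and differences between clones cannot be told apart. In the labels, 2 of the 3 OG samples of each genotype share a clone. An SD with n = 3 thus does not rest on 3 independent clones. For each bin the authors subtracted scaled input reads (total genomic DNA) from the reads of the biotin pull-down of OG, here called OG reads.

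OGG1 is the DNA glycosylase that removes OG opposite cytosine and starts base excision repair. MUTYH removes adenine that was wrongly placed opposite OG, which gives OGG1 another chance to act. CpG islands are stretches with many CG dinucleotides that often lie at gene starts, and runs of guanine, such as those that can fold into G-quadruplexes (G4), are easily oxidized.

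The sequences below are shown because the members in CpG islands stood out by their base content. The first set gives G4 motifs from the members with the largest margin, the distance between the lowest WT and the highest knockout column. A motif was 4 or more runs of at least 3 G with 1 to 7 bases between runs, on either strand, and capitals mark the runs of G. The bases between runs could be G as well. In the chromosome 3 motif the long last run of G was thus counted as several runs. All are from GRCh38. The first lies in the 5S rRNA gene array at chr1:228615296-228615326 (plus strand), and the identical run occurs in a second member at chr1:228608573-228608603. The second lies in the same array at chr1:228643102-228643122 (minus strand) and again at chr1:228614043-228614063. The others lie at chr21:8987474-8987495 and chr3:48211430-48211447 (both plus strand).
5S array, plus strand: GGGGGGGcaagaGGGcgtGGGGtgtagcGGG
5S array, minus strand: GGGGcGGGcaGGGGcagcGGG
chromosome 21: GGGtcGGGGGGtGGGGcccGGG
chromosome 3: GGGaggtGGGGGGGGGGG

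The second set gives the 150 bases with the most CpG in members of the main kinds, and capitals mark each CG. It shows a member at a promoter in a CpG island, that of IRF1 at chr5:132490298-132490447. Beside it stand a member outside islands at chr20:21107001-21107150 and one in the body of WWOX at chr16:78575457-78575606. All are given on the plus strand of GRCh38. The promoter stretch holds 31 CG dinucleotides, and the other stretches hold 3 each.
IRF1 promoter: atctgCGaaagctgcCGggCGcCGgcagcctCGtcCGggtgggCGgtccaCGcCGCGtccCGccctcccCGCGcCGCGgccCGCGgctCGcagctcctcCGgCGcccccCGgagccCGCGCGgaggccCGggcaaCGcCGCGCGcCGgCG
Outside islands, chromosome 20: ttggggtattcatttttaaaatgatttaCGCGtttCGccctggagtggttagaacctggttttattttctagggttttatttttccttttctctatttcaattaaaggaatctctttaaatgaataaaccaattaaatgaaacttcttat
Within WWOX: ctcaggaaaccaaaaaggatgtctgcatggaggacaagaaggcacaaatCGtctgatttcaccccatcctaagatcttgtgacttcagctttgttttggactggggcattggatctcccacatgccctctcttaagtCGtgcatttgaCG

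With columns divided by their mean, WT was not on top more often than most other sets of columns, but its bins lay more often in CpG islands than those of any other set. There are 220 choices of 3 of the 12 columns, and a bin without ties has exactly 1 choice on top. The 11568 members were 0.430% of autosomal bins, where an even split over the choices gives 0.455%. Ranked by number, WT was at place 155 of 220. Its place was 46 with columns divided by their median, 13 with ranks over bins, 6 with the log2 ratio of OG to input reads and 1 with OG reads alone. The number ranged from 9893 to 14615 over the choices, with a median of 12053.5. The MUTYH columns were on top in 12984 bins, the OGG1 columns in 11260 and the DKO columns in 13401. The highest number belonged to a mixed choice of MU2, MU3 and DKO1.

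By location, WT held place 1 of 220 for CpG islands, promoters, 5′ UTRs and G4 motifs. This depended on the processing. Without bins of low or very high input WT was at place 8 for islands and 55 for promoters, and with the log2 ratio of OG to input at places 154 and 151. CpG islands held 693 members, or 5.99%, while 1.23% of all autosomal bins were in islands. The next highest choice had 5.16%, the median choice 1.09%, MUTYH 0.670%, OGG1 2.02% and DKO 0.418%. A promoter was at the centre of 488 members, or 4.22%, against 1.92% of all bins. Of these, 332 were in islands. The 5′ UTR share was 0.303% against 0.0982% of all bins, and G4 motifs were in 14.1% of members against 9.58% of all bins. Members had 14.7 CpG per bin on average (all bins, 9.83), also place 1. Mean GC content was 42.2% against 41.0%, at place 45 only.

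**Figure D1:**
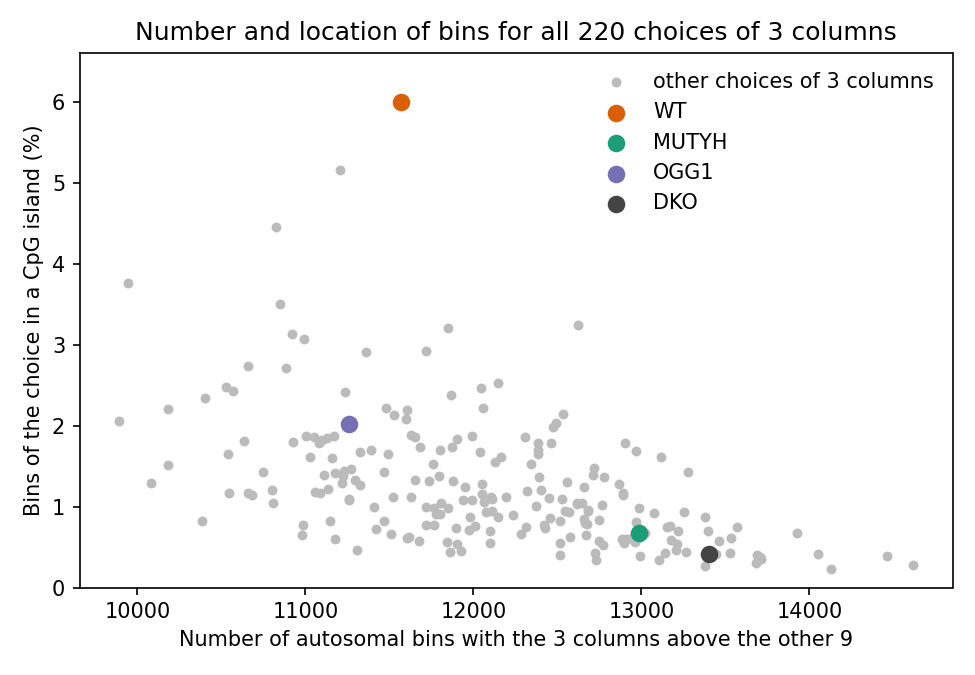
Each point is 1 of the 220 choices of 3 columns. The x axis gives the number of autosomal bins in which these 3 columns exceeded the other 9, and the y axis the percent of those bins in CpG islands. WT sits at an ordinary number (11568) and at the highest island share (5.99%).

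Outside islands the members looked like other bins. There were 10875 such members, 0.410% of bins outside islands, which was place 192 of 220. G4 motifs were in 10.0% of them (place 57), promoters in 1.43% (place 122), and their mean GC content was 40.5% (place 129). Over the chromosomes, the number of members relative to that expected from all bins ranged from 0.886 on chromosome 6 to 1.14 on chromosome 1, where WT was at place 7. DKO was at place 1 for chromosome 6, with 1.54.

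The share of bins with WT on top rose steeply at high CpG content. It was 0.436% in bins with 0 to 4 CpG, 0.370% with 10 to 19 (place 216 of 220) and 0.610% with 40 to 59. With 60 to 79 CpG it was 1.72%, with 80 to 99 it was 3.48%, and with 100 or more it was 7.72%, or 330 of 4273 bins. WT was at place 1 in each of these last classes, while in the class of 100 or more MUTYH had 0.140%, OGG1 0.445% and DKO 0 bins. Only 1306 bins of that class had at least 5 input reads in every column. Among them the WT share was 3.68% (48 bins), and with this limit 2.42% in the class of 80 to 99. WT was still at place 1 in both. By GC content the rise was sharper. Of bins with 65 to 70% GC, 1.73% were members, with 70 to 75% GC 5.26%, with 75 to 80% GC 13.3%, and with 80% or more 29.9% (55 of 184 bins). In that last class no bin had the MUTYH, the OGG1 or the DKO columns on top. No limit on input reads was set for the GC classes. Named members of 80% GC or more, in MUC1, at HRAS and on chromosome 21, had 0 to 6 input reads in each knockout column. Low knockout values in such bins can stand for missing reads.

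**Figure D2:**
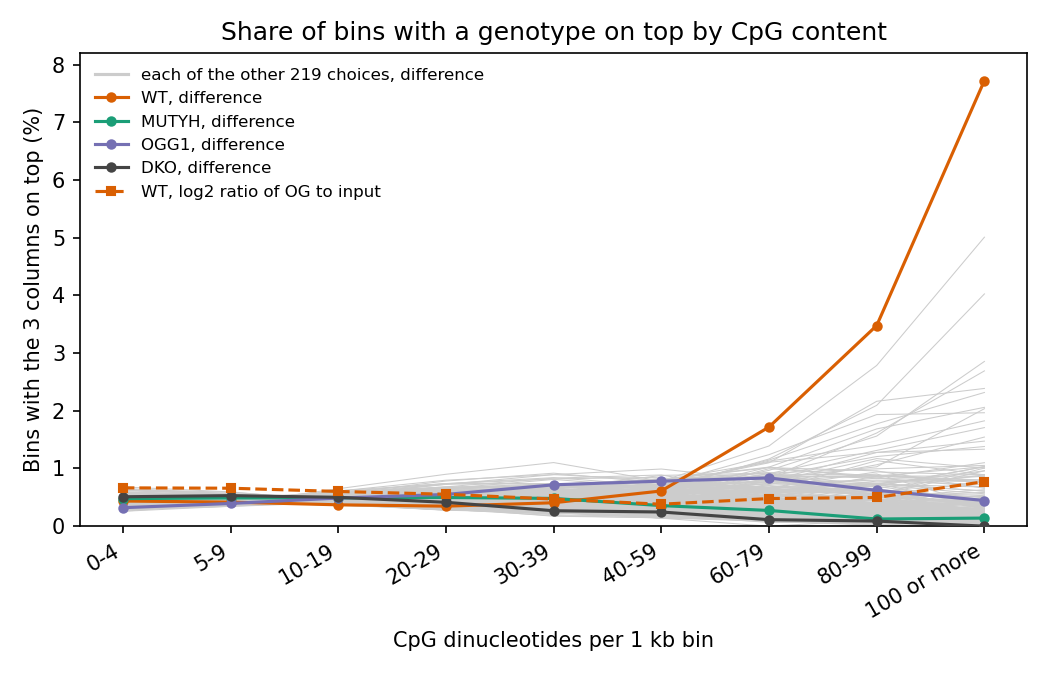
The x axis gives classes of CpG per 1 kb bin and the y axis the percent of bins in which 3 columns exceeded the other 9. Grey lines are the other choices, coloured lines the genotypes, and the dashed line WT when OG reads are divided by input reads (log2 ratio) instead of subtracting input. The solid WT line reaches 7.72% at 100 or more CpG, while the dashed line stays between 0.380% and 0.772%.

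The margin of most members was small. Its median was 0.251 column means, with 0.0374 and 0.795 as the 10th and 90th percentiles and 3.35 as the highest value. It was over 0.5 in 2772 members and over 1 in 606. The median member had a WT mean of 2.43 and a knockout mean of 0.394. Just inside the threshold were a bin in SHOC1, one at chr6:76736001-76737000 and one in LAMA3, and just outside were bins at chr11:25918001-25919000, in ZNF839 and in SMAD2, all with a margin of 0 to 3 decimals. No single knockout column set the limit, since each of the 9 was the highest knockout in 10.5% to 11.5% of members, where an even share is 11.1%.

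Reads could be recovered from the values for all members but 1. Sequencing gave 59598911 to 86149897 OG reads in the WT columns and 75486027 to 113911793 in the knockout columns, with 78619378 to 101601312 input reads over the 12 columns. A bin had 21.0 to 40.2 OG reads and 27.7 to 35.8 input reads on average, so counting error is a large part of a single bin's value. The SD of a scaled column over bins was 1.3 to 1.44 in WT and 1.34 to 1.47 in the knockouts.

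In islands and outside them the members differed in which reads stood apart. In islands, OG reads alone, divided by the column mean, were above all knockouts in 92.8% of members, and input reads were also above all knockouts in 25.1%. Outside islands these shares were 37.4% and 0.487%. Averaged over island members with the column mean set to 1, OG reads were 1.2 to 1.37 in WT and 0.402 to 0.602 in the knockouts, and input reads 0.65 to 0.760 and 0.390 to 0.546. Outside islands, OG reads were 1.28 to 1.45 in WT and 0.862 to 0.916 in the knockouts, and input reads 0.835 to 0.896 and 1.05 to 1.07. Thus island members were high in WT in both kinds of reads, while outside islands they were high in OG reads and low in input reads. There the genotype means differed by 0.486 in OG reads (WT minus knockouts) and by -0.184 in input reads. The rule favours high OG reads and low input reads in WT, so these directions follow from it. The high OG reads of island members do so too. These levels were not set against those of the other choices.

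Over all 33112 bins in CpG islands, members or not, reads of both kinds were also higher in WT. Input reads, with the column mean set to 1, were 0.944, 0.958 and 0.996 in the WT columns from lowest to highest and 0.690 to 0.820 in the 9 knockout columns. OG reads were 1.11 to 1.15 in WT and 0.744 to 0.958 in the knockouts. Neither overlapped between WT and knockouts. The value itself, OG minus scaled input, was 1.34 to 1.57 in WT, 0.955 to 1.34 in MUTYH, 1.36 to 1.51 in OGG1 and 0.680 to 1.3 in DKO, and WT overlapped with the knockouts here. The log2 ratio of OG to input was 0.15 to 0.27 in WT and -0.04 to 0.34 in the knockouts. Means were 0.22 ± 0.06 (SD, n = 3) in WT and 0.22 over the 9 knockout columns, which pool 3 genotypes. In island bins with at least 5 input reads in every column, the mean log2 ratio was 0.151 to 0.256 in WT. It was 0.119 to 0.265 in MUTYH, 0.225 to 0.339 in OGG1 and -0.0475 to 0.270 in DKO. The WT ratios of OG to input in islands thus lay within the range of the knockout columns. WT and knockouts differed in how many reads of either kind fell there.

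**Figure D3:**
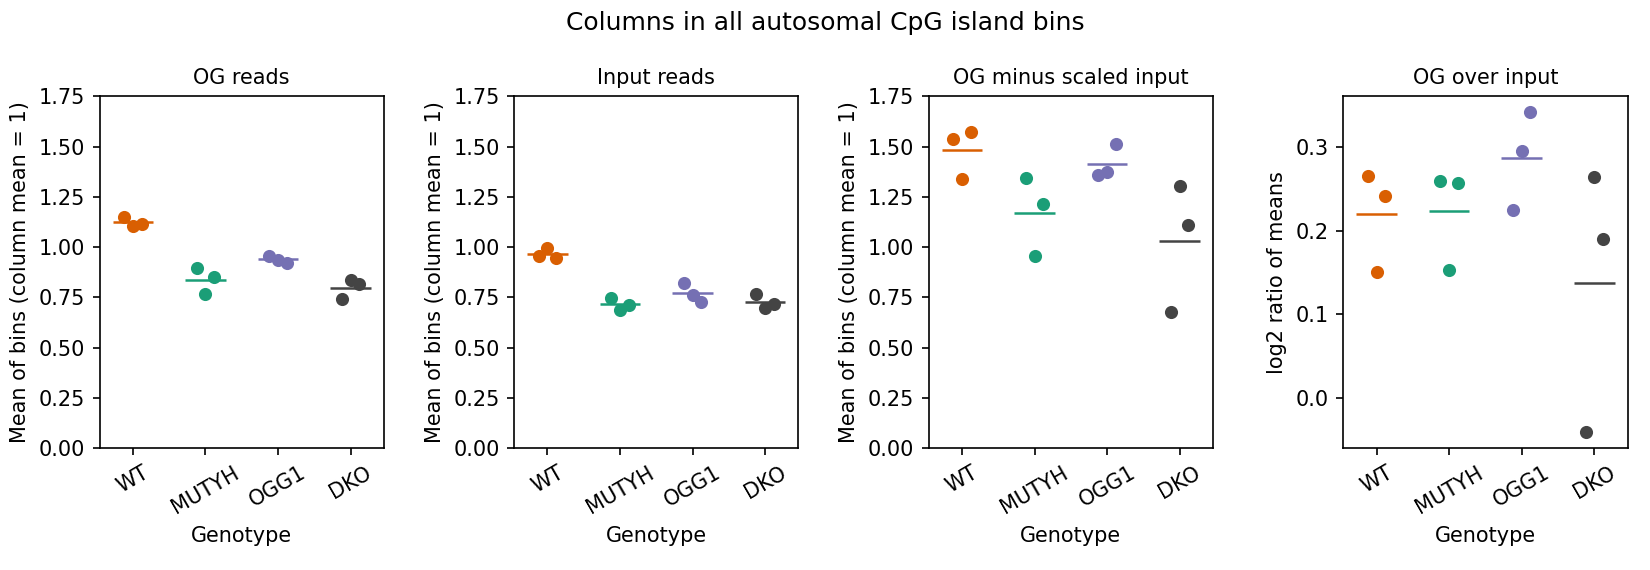
Each point is 1 column, averaged over all autosomal bins in CpG islands, for OG reads, input reads and OG minus scaled input (column mean set to 1) and for the log2 ratio of OG to input. Horizontal lines are genotype means. WT lies above all knockouts in OG reads (1.11 to 1.15) and input reads (0.944 to 0.996), and within their range in the ratio (0.15 to 0.27).

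In bins with 100 or more CpG the distance was wider. Input reads were 0.509 to 0.618 in WT and 0.228 to 0.345 in the knockouts, and OG reads were 0.692 to 0.820 and 0.262 to 0.460. The log2 ratio again overlapped, with 0.16 to 0.62 in WT and -0.21 to 0.68 in the knockouts. In promoters outside islands the columns lay close together, with input reads of 1.1 to 1.11 in WT and 1.04 to 1.09 in the knockouts. In all other autosomal bins, input reads were 1.00 in every WT column and 1.00 to 1.01 in every knockout column. The part of the input reads in the result was not tested.

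When OG reads were divided by input reads instead (log2 ratio), WT was on top in 16984 bins (place 6 of 220), and the excess in islands was no longer seen. Islands then held 0.954% of them, less than the 1.23% of all bins, and promoters 1.77%. Only 102 of the 693 island members (14.7%) had WT on top by this measure too, against 7328 of 10875 members outside islands (67.4%). With OG reads alone, WT was on top in 20622 bins (place 1), of which 17.9% were in islands, and 642 of the 693 island members were among them. The excess of WT in islands therefore depended on whether input was subtracted or divided by.

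Among members at coding promoters, the 8 with the largest margin were all in CpG islands. TPM1 codes for a tropomyosin, which binds actin. The bin at its promoter, chr15:63042001-63043000, had values of 4.23, 3.61 and 6.75 in WT, 0.658, -0.655 and 0.456 in MUTYH, 1.07, 1.12 and -0.321 in OGG1 and 1.56, 0.629 and 0.118 in DKO. Each WT column was at least 2.05 above the highest knockout. The WT columns had 47, 48 and 76 OG reads and 43, 43 and 26 input reads there, and the knockouts 7 to 31 and 12 to 29.

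IRF1 codes for a transcription factor of the interferon response. At its promoter, chr5:132490001-132491000, WT had 4.53, 3.40 and 3.47 and the knockouts -0.576 to 1.37. Reads were few in the knockouts, with 0 to 15 OG reads and 2 to 9 input reads, against 36 to 41 and 16 to 22 in WT. FAM83D codes for a protein of the mitotic spindle, and its promoter bin, chr20:38926001-38927000, had 2.75, 3.32 and 2.91 in WT and -0.0814 to 0.957 in the knockouts. Here too input was higher in WT, with 24 to 27 reads against 4 to 20.

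The other 5 promoters differed in their input. Only at TRAF2 were input reads higher in every WT column (11 to 15) than in the knockouts (0 to 7). With the column mean set to 1, input overlapped between WT and knockouts at YJU2B (0.609 to 0.893 and 0.727 to 1.32), BMP4, RMDN3 and AKT1S1. At BMP4, a growth factor of the TGF-beta family, WT was at 4.05 ± 0.980 (SD, n = 3) and the highest knockout at 1.99. At TRAF2, an adaptor of TNF receptor signalling, WT was at 3.14 ± 0.905 (SD, n = 3) with a highest knockout of 0.888. At RMDN3, a protein of the outer mitochondrial membrane, the values were 3.96 ± 0.788 (SD, n = 3) and 2.02, and at YJU2B 4.31 ± 0.557 (SD, n = 3) and 2.29. The last bin, chr19:49877001-49878000, lies at the promoters shared by AKT1S1, a subunit of mTORC1, and TBC1D17, with 3.93 ± 0.400 (SD, n = 3) and 2.31.

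The densest group of members lay in the 5S rRNA gene array, which codes for the smallest RNA of the large ribosomal subunit in tandem copies (RNA5S1 to RNA5S17 in RefSeq, chr1:228610266-228646158). Array and WWOX were singled out after their values were seen. Of the 37 bins from chr1:228610001-228647000, 13 were members, and 14 lay in the surrounding 100 kb window. No choice had more in any such window, and 1 other choice had as many. The array had mean values of 10.8, 13.2 and 8.91 in WT. MUTYH had 5.58, 3.43 and 7.06, OGG1 7.74, 6.09 and 9.31, and DKO 1.05, 5.49 and 4.52, so OG3 was above WT3 over the array as a whole.

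Both kinds of reads were higher in WT over the array. Input reads were 4.22 to 4.77 times the column mean in WT and 1.5 to 2.69 times in the knockouts, and OG reads 5.65 to 7.43 and 1.84 to 3.96 times. The log2 ratio of OG to input was 0.32 to 0.64 in WT and -0.23 to 1.01 in the knockouts, and so overlapped. Copies in the array are nearly identical, so reads cannot be placed on 1 copy with certainty, and the number of copies in each clone was not given in the sources used here. The bin with the largest margin of all members, chr1:228615001-228616000, had 10.2, 13.6 and 9.60 in WT and -0.610 to 6.25 in the knockouts, with 119 to 153 OG reads against 26 to 102 and 82 to 118 input reads against 26 to 67.

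A comparable GC-rich pair was at chr21:8987001-8989000. Its first bin, with 199 CpG, had 31, 51 and 6 input reads in WT and 0 to 2 in the knockouts, and 50 to 146 OG reads against 0 to 9, so the knockout values near 0 there came from nearly no reads. The WT values were 14.6, 3.34 and 17, which is the widest spread among the named members.

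WWOX, a tumour suppressor gene that spans a common fragile site, had 17 members in its 1114 bins (chr16:78099400-79212667), more than any other coding gene. Of these, 11 lay in the 100 kb from chr16:78500001-78600000. Over stretches of the gene, input reads were nearly absent in some columns, and 14 of the 17 members lay in a step of 10 kb where at least 1 column had input below 0.25 times its mean. Stretches of at least 30 kb over which the same columns were low held 10 of them. From chr16:78520001-78590000, with 8 members, input reads were 0.736, 0.697 and 0.791 times the column mean in WT and 0.823 in MU3, while the other 8 knockout columns were at 0.00359 to 0.0103. The values were 0.707, 0.804 and 0.720 in WT and 0.989 in MU3, and from -0.0136 to 0.291 in the other 8. On average WT was thus below MU3 here, the only knockout column with input in this stretch.

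The stretch without input reads differed by column. From chr16:78410001-78490000, MU3 had 0.0861 times its mean and the other 11 columns 0.724 to 0.880. From chr16:78590001-78710000, MU1, MU2, OG1 and OG2 had 0.000465 to 0.0110, and the other 8 columns 0.641 to 0.919. From chr16:78720001-78750000, MU1 and MU2 had 0.00209 and 0, and a WT column, WT3, also fell to 0.0881. MU1 and MU2 stayed low up to chr16:78750001-78810000. From chr16:78960001-79040000, OG3 and the 3 DKO columns had 0.00903 to 0.0128, and the others 0.860 to 0.909. In these stretches a knockout value near 0 comes from missing reads of both kinds and is no measure of OG.

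**Figure D4:**
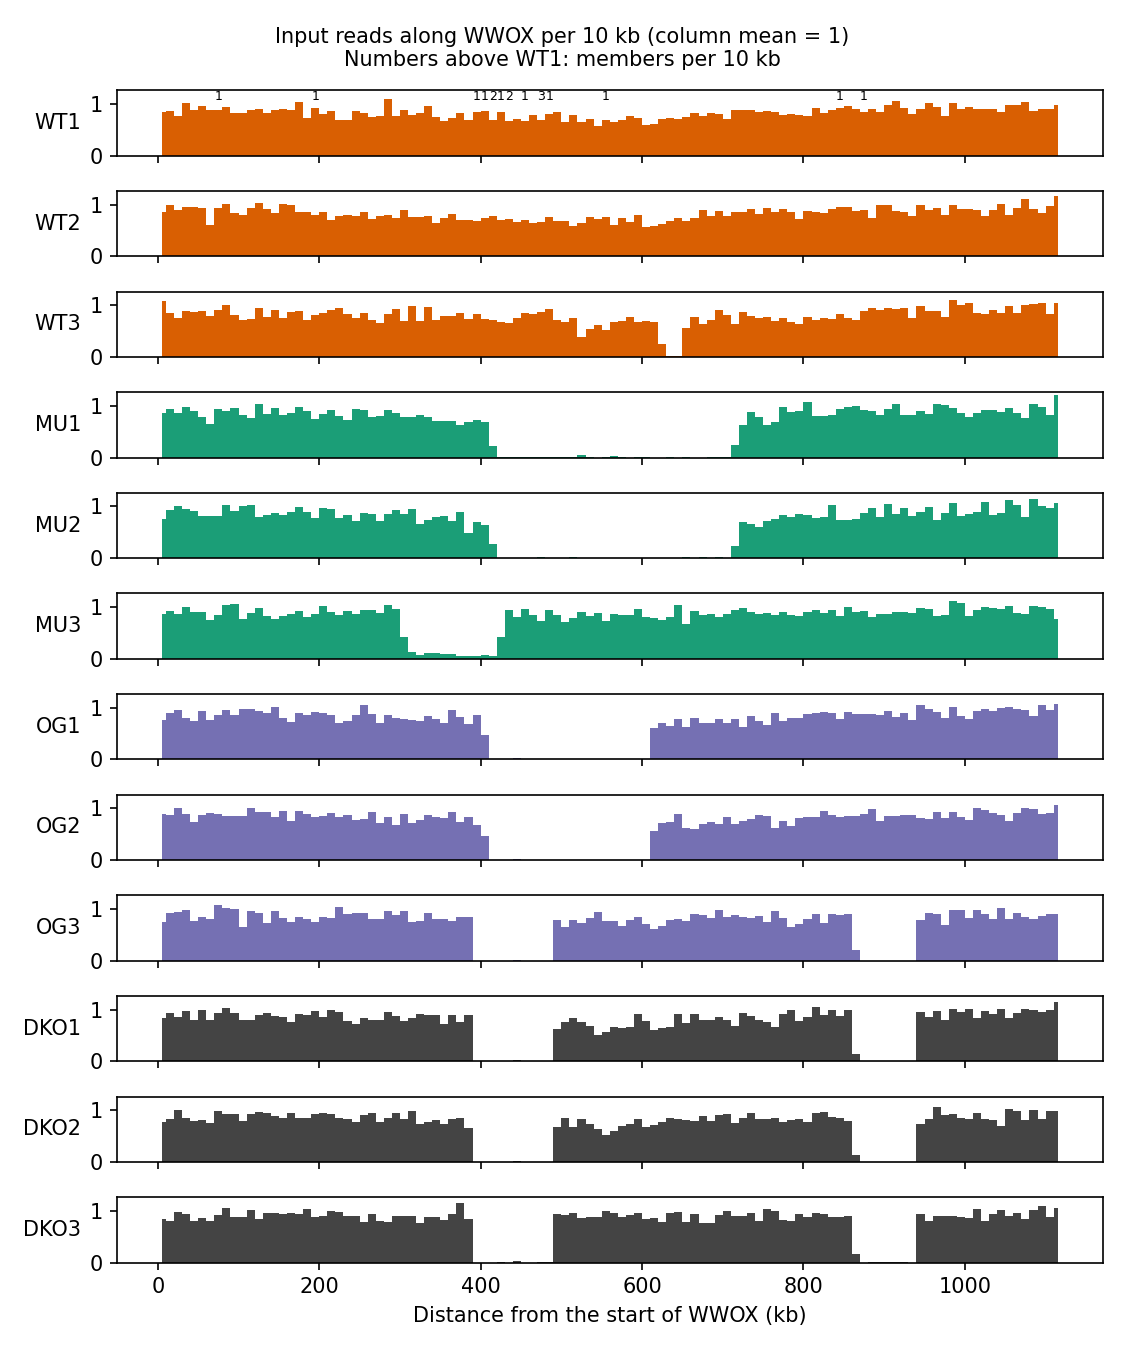
Input reads along WWOX in steps of 10 kb, 1 panel per column, with the column mean set to 1 on the y axis and the distance from the start of WWOX in kb on the x axis. Numbers above WT1 count members per 10 kb. Input is near 0 in stretches of each knockout column, at different places, and 8 members lie in the 70 kb where 8 knockout columns have nearly none.

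Bins of this kind were searched for in all autosomes. In 135 bins at least 6 knockout columns had at most 1 input read while WT had 10 or more on average, and 82 of them were in WWOX. Of these 135, 25 were members, 10 of them in WWOX. The other members of this kind included the promoter bin of UBN1 and GLYR1, where all 9 knockout columns had at most 1 input read, and bins in DGKQ, ARHGAP39 and DNAJC25.

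Named next are members outside islands and the 5S array with the largest margins among bins of ordinary input, a limit set by the choice of named bins. The bin of the chromosome 3 run of G, chr3:48211001-48212000, was outside islands too and had a margin of 2.19, but only 4 to 21 input reads in the knockouts. At chr20:21107001-21108000, the promoter of the noncoding RNA LINC00237, the values were 4.34, 4.76 and 3.60 in WT, -1.23, -0.188 and 0.568 in MUTYH, -0.689, 0.0906 and -0.857 in OGG1 and 1.28, 1.29 and 0.294 in DKO. OG reads were 37 to 52 in WT and 26 to 44 in the knockouts, and input reads 16 to 29 and 32 to 48. WT libraries were shallower in OG reads on average, though WT3 had more than MU2 and MU3, and input depth overlapped. With the column mean set to 1, OG reads were 1.71 to 2.06 in WT and 0.735 to 1.1 in the knockouts, and input reads 0.457 to 0.996 and 1.03 to 1.55, so neither overlapped.

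A bin at chr1:226338001-226339000, 21710 bp from PARP1, the poly(ADP-ribose) polymerase that senses strand breaks, had 3.81, 3.66 and 3.61 in WT and -1.16 to 1.33 in the knockouts. A bin in an intron of TJP1, which codes for a tight junction protein, had 3.0, 3.53 and 3.65 and a highest knockout of 0.730. The others were near MEIS2 (highest knockout 1.44), near CTNNA2 (0.819), in STK32B (1.34), in DUSP14 (1.86) and near POTEC (1.5), with WT means of 4.89, 3.52, 4.0, 4.43 and 3.61. In all of these the columns of WT were apart from the 9 knockouts by 2.07 or more, which the choice of the largest margins sets. A further bin of this list, chr1:228608001-228609000, lies in an island just before the 5S array and holds the same G4 run.

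**Figure D5:**
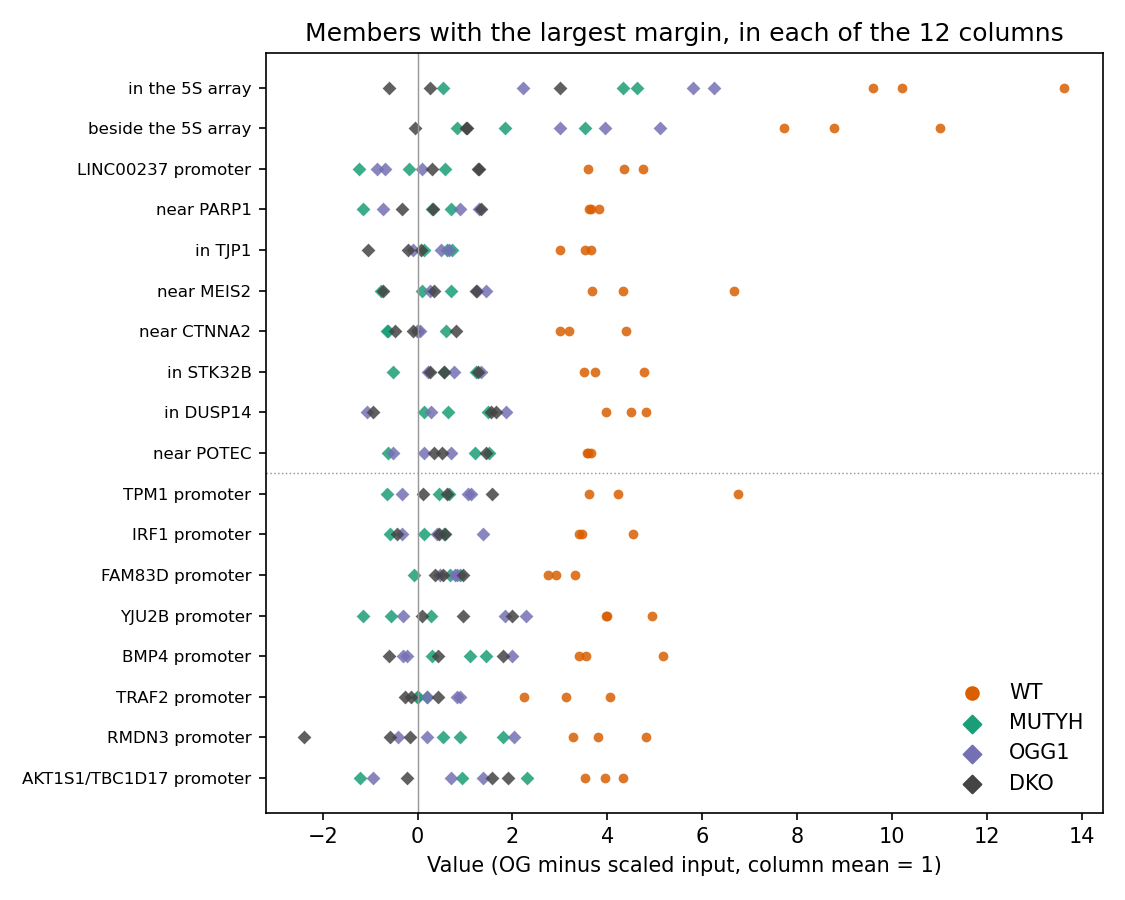
Values (OG minus scaled input, column mean set to 1) of the 10 members with the largest margin and ordinary input, and below the dotted line of the 8 members with the largest margin at coding promoters. Each symbol is 1 of the 12 columns. In the bin in the 5S array the knockouts spread from -0.610 to 6.25, while in most other bins they lie between -2 and 3.

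Members were mostly single bins. There were 11352 single members, 103 pairs, 2 runs of 3 and 1 run of 4 bins. The 110 pairs of touching members were 2.21 times the number expected from their frequency, place 9 of 220, and the median choice had 1.84 times. The run of 4 was in the 5S array, from chr1:228614001-228618000. Runs of 3 were in an intron of ZBTB7C, with WT means of 2.25, 2.48 and 2.97, and in MUC1, the gene of a mucin. In 2 of the 3 MUC1 bins all 9 knockout columns were at 0 and WT at 0.642 and 0.405 on average. The knockouts had neither OG nor input reads there, and WT had 2 to 7 OG and 0 to 4 input reads, so these zeros are missing reads and no measure of OG. A pair was near CD177, a neutrophil surface protein, with WT means of 2.19 and 2.79 against highest knockouts of 0.558 and 0.983.

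In the 22911 bins directly beside members, which the rule did not use, WT columns were at 1.17 to 1.18 and knockout columns at 0.937 to 0.977, an excess of 0.209. The same measure for other choices had a median of 0.210, and WT was at place 123. At 2 to 5 bins away the excess was -0.00355, and at 6 to 10 bins it was -0.00168. The excess was thus seen in touching bins, to about the degree of the median choice, and not further away. Why touching bins share it was not tested. When bins were joined to windows of 10, 100 and 1000 kb, WT was on top in 1092, 82 and 6 windows, at places 165, 147 and 86.

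Other genes with many members were long. CNTNAP2, a neuronal adhesion gene, had 14 in 2305 bins (0.607%), AUTS2 13 (1.09%), and ANKS1B and CCSER1 12 each (0.953% and 0.812%). Among genes of at least 50 kb, ZCCHC2 had the most per kb, with 5 members in 65 bins (7.69%). It was followed by ENSG00000273025 with 3 in 53, MYH13, a skeletal myosin gene, with 4 in 72, TAMM41, a mitochondrial lipid enzyme gene, with 3 in 57, and RMND5A with 3 in 58. In all, 3922 coding genes on autosomes had a member in the body.

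Genes of base excision repair and the nucleotide pool held 6 members in 695 bins (0.863%), against 0.430% of all autosomal bins. This share rests on few bins, was not tested and was not set against the other choices. NEIL2, a glycosylase for oxidized bases, was the only gene of this list with a member at its promoter (WT 4.29, 1.53 and 2.14, highest knockout 1.49). In POLB, the polymerase that fills the gap in this pathway, a bin had 3.81, 3.55 and 4.02 in WT and -0.414 to 1.96 in the knockouts. Members in NEIL3, a second glycosylase of that family, in SMUG1, a uracil glycosylase, and in PARP1 had margins of 0.113, 0.291 and 0.144. OGG1 and MUTYH themselves held none.

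Genes whose promoters have described G-quadruplexes held 4 members in 835 bins (0.479%). The one at a promoter was at HRAS, a small GTPase, with 2.84, 1.57 and 0.688 in WT and -0.357 to 0.399 in the knockouts. WT had 11 to 22 OG and 5 to 7 input reads there, and the knockouts only 0 to 6 of each kind. MU2, OG3 and DKO3 had no reads of either kind, so their values of 0 are no measure of OG. Bins in KIT and RET, both receptor tyrosine kinases, and in RAD17, a checkpoint loader, had margins of 0.696, 0.318 and 0.783. Genes of the antioxidant response held 6 in 1323 bins (0.454%). NFE2L2, the transcription factor of that response, had a member at its promoter, with 3.32, 2.32 and 1.91 in WT and -0.376 to 1.29 in the knockouts. WT had 22 to 27 OG and 8 to 18 input reads there, and the knockouts 2 to 21 and 1 to 10. TXNRD1, a thioredoxin reductase, had one with a margin of 1.42, and SOD2, CAT and AHR had 4 with 0.0437 to 0.328. The shares of the last 2 lists were near that of all bins.

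Whether the knockouts differed from each other in the members was asked with limma on log2(value + 1), fitted to the 9 knockout columns over 2643045 autosomal bins, of which 11025 were members. The rule treats the knockout columns alike, but it caps all of them below WT. OGG1 against MUTYH called 0 members by limma with Benjamini-Hochberg adjustment over all bins, where 0.000984% of all bins were called, and 202 members had an unadjusted p under 0.05 (105002 of all bins). DKO against MUTYH called 4 members, all lower in DKO, where 0.00208% of all bins were called. DKO against OGG1 called 5, again all lower in DKO, where 0.00193% were called. These comparisons share the DKO columns, and the 4 members called against MUTYH were all among the 5 called against OGG1.

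All called members lay in or near the 5S array or on chromosome 21. At chr1:228638001-228639000 the values were 7.89, 6.27 and 6.81 in MUTYH, 8.57, 4.76 and 10.8 in OGG1 and -1.40, 4.85 and 8.70 in DKO, which overlap. The log2 difference of DKO from OGG1 was -2.17 (limma, adjusted p = 0.000418). DKO had 1.22, 12.4 and 6.06 at chr1:228557001-228558000, and 1.01, 6.25 and 10.5 at chr1:228612001-228613000. DKO1 was thus the lowest DKO column there too, and DKO overlapped with OGG1. At chr1:228616001-228617000 DKO1 was instead the highest, with 7.49, 5.03 and 3.96 in DKO. At chr21:8988001-8989000 DKO had 11.5, 9.39 and 12.3 and did not overlap with MUTYH (20.7 to 25.7) or OGG1 (24.5 to 28.2), and the log2 differences were -1.04 and -1.26 (limma, adjusted p = 4.51e-112 and 1.66e-165). In these fits the variance of every bin was that of the trend over all bins, so p does not reflect how far a bin's own columns lie apart. At that chromosome 21 bin, input reads were 166 in DKO3 and 283 to 394 in the MUTYH and OGG1 columns with recovered reads. Reads of OG2, DKO1 and DKO2 could not be recovered there. Over the members tested, MUTYH, OGG1 and DKO had median log2 levels of 2.0, 2.09 and 2.03, and over all bins tested of 2.69, 2.69 and 2.71.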

How the data were processed

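OG-seq was analysed in 24 samples, 3 OG and 3 input libraries per genotype. The deposited table gives, for 12 columns, a score per 1 kb bin of GRCh38. The authors took OG reads and removed the input reads, adjusted with signal extraction scaling factors. Values below 0 were kept. The submitters' processing notes name cutadapt 2.8, Bowtie2 2.3.5.1, FastQC 0.11.9, SAMtools, bedtools, R 4.2.2 and edgeR 3.42.4. Clones, experiments and technical runs are summed in or not tied to the columns, so replicate error is the spread between columns and may in part be technical.

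Columns were divided by their mean. Members, ranks over the 220 choices, locations and neighbours were computed with Python 3.11.15, numpy 2.4.6, pandas 2.3.3 and scipy 1.17.1, and figures with matplotlib 3.10.9. Ties at the third place were left out (30356 bins). OG and input reads were solved as whole numbers from the values, where 4 to 17 bins per column could not be solved. CpG islands (32466) were 500 bp windows in steps of 100 bp with at least 55% GC and an observed over expected CpG of at least 0.65, joined where they overlap. Promoters reached from 1000 bp before to 100 bp after a transcript start, and features were taken at the bin centre. The annotation had 38726 genes. Genes of the 5S array came from RefSeq. Expected shares are those of all autosomal bins.

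Knockouts were compared with limma 3.58.1 in R 4.3.3 (variance trend, pseudocount of 1, values below 0 set to 0, at least 3 columns above 0). The scripts were tested on simulated data. The edgeR test was not used, because the values are not raw counts.

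Named bins and genes followed a rule: the 10 largest margins with mean input between the 5th and 99th percentile, the 8 largest at coding promoters, the 5 longest runs, the 5 genes with most members and the 5 with most per kb, the 3 bins on either side of the threshold, and members in genes of 3 lists. Some sequences and 1 gene that this rule names are not reported here. The members, the lists and the rule were chosen with earlier results of these data known. Alternatives were other scalings, the log2 ratio, OG reads alone, filters on input, larger margins, windows, and leaving out each column.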

Additional observations from a re-analysis of the deposited data

How the results depend on the processing

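The count of members relative to the mean over choices (0.958), its place (155), the mean GC content (42.2%), the log2 ratio of observed to expected in islands (2.28) and promoters (1.13) and the excess in adjacent bins (0.209) were recomputed. Without dividing columns by their mean they were 0.440, 217, 41.5% and, for the excess, 0.594. Columns divided by the median gave place 46 and an excess of 0.252, and ranks over bins place 13 and 0.0422. The log2 ratio of OG to input gave place 6, 40.3%, -0.37, -0.12 and 0.0861, so islands and promoters turned direction. OG reads alone gave 1.71, place 1, 48.2%, 3.86, 2.38 and 0.0853. Without bins of low or very high input the values were place 196, 40.5%, 0.84, 0.20 and 0.192, and a margin of at least 0.5 gave 43.5% and 0.268. Strata of GC content lowered the expected-based log2 ratios to 1.45 and 0.78. Windows of 1000 kb gave a relative count of 0.495. The excess was -0.00355 at 2 to 5 bins and -0.00168 at 6 to 10 bins. Members next to a member were 2.17 times expected, and 1.22 times within 5 bins.

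Alternatives chosen after seeing the data were at least 5 input reads in every column (place 180, 41.0%, 1.56, 0.61 and 0.202), the log2 ratio with that filter (place 5, 40.2%, -0.41, -0.13 and 0.0851), and bins under 75% GC (41.5%). Without the 5S array and WWOX no value moved by more than the spread between sets. Leaving out each column in turn gave 0.886 to 1.01, places 29 to 144 (of 55 choices without a WT column and 165 without another), 41.2% to 42.3%, island log2 ratios of 1.41 to 2.26, promoter ones of 0.59 to 1.12, and excesses of 0.171 to 0.207. The island value fell to 1.45 without WT1 and 1.41 without WT3.

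The knockout comparisons called 132 bins in all, 9 of them members (counting a bin once per comparison). Pseudocounts of 0.5 and 5 gave 234 and 27 calls, no filter 315, and all 12 columns in 1 fit 72. Leaving out a column number gave 76 to 128. An unadjusted p of at most 0.01 with a log2 change beyond 0.5 gave 39789. Calls among members were 2 with a pseudocount of 5, 16 without a filter, 36 by the unadjusted limit and 4 to 8 without a column number. With column number as replicate block there were 129 calls, 9 of them members. Same-numbered columns of different knockouts had correlations of -0.012 to 0.009 and others -0.009 to 0.013, so the numbers did not pair the columns. All 129 were among the 132, and the 9 members were the same bins.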

Other observations

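On the X chromosome, which the rule leaves out, WT was above all knockouts in 692 of 147462 bins (0.469%), place 77 of 220, and the median choice had 0.449%.

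In the stretches of WWOX where other knockout columns had neither OG nor input reads, DKO1 had OG reads without input reads. From chr16:78520001-78590000 its OG reads were 0.0759 times the column mean and its input reads 0.00457 times, and from chr16:78960001-79040000 they were 0.0951 and 0.0105 times. The other knockout columns without input had OG reads of 0.00779 times or less in the first stretch and 0.0136 times or less in the second. The cause was not tested.

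A further group of members, singled out after its values were seen, was at chr18:62500001-62600000, where 6 of 100 bins were members, 2 of them in islands. It contains ZCCHC2. Mean values over the window were 1.3 to 1.34 in WT and 0.943 to 1.27 in the knockouts, so the columns did not overlap. The window was picked for its members, in which WT exceeds all knockouts by the rule. The lack of overlap is thus set in part by that choice. Among all 26905 windows of 100 kb, WT was on top in 82 (0.305%), below the median choice (0.351%).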
